A study of Mus musculus with 6 samples.

Results

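The genes described here are the mucosal oxidases Duox1, Duox2 and Nox1, the proteins they need (Duoxa1, Duoxa2, Noxo1 and Noxa1), the inducible nitric oxide synthase gene Nos2, and Gpx2, an epithelial glutathione peroxidase. They were chosen as the non-control probes whose gene name on the array was 1 of these 9 names, which gave 12 probes on 21 spots, for 9 of 31689 genes and unnamed transcripts on the array. RNA came from the mucosa stripped off the muscle of the glandular stomach of C57BL/6J mice, and each sample was 1 mouse on 1 single-colour array. The mice were A4gnt null, aged 5, 10 and 50 weeks, and wild type, aged 5, 10 and 50 weeks, with 1 mouse for each genotype and age. A4gnt encodes the transferase that adds the terminal GlcNAc of gastric gland mucin. What the null allele deletes, and whether any mice were littermates, is not in the labels.

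DUOX and NOX enzymes carry electrons from NADPH to oxygen on the far side of a membrane. DUOX enzymes release hydrogen peroxide at the apical surface of epithelia and leave the endoplasmic reticulum only with a DUOXA maturation factor, DUOXA1 beside DUOX1 and DUOXA2 beside DUOX2. NOX1, best known from colon epithelium, makes superoxide with the organiser NOXO1, the activator NOXA1 and the membrane subunit CYBA. NOS2 makes nitric oxide from arginine in inflamed epithelium and macrophages, and GPX2 reduces hydrogen peroxide in the cells of the gut lining.

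The 4 Duox locus genes were read by probes that lie within 67.4 kb of mouse chromosome 2 (mm9, 122106173 to 122173550), in the order Duox2, Duoxa2, Duoxa1, Duox1. The probes whose sequence lies in coding sequence are given for the genes that the results turn on. The Duox2 probe (chr2:122106173-122106232, minus strand) ends in the stop codon of the gene, in capitals. The Duoxa1 probe spans 682 bases of genome for its 60 bases (chr2:122131391-122132072, minus strand), so it crosses an intron and reads the spliced message. The Noxo1 probe (chr17:24837201-24837260, plus strand) and the Nox1 probe used for testing (chrX:130621740-130621799, minus strand) each map to an unbroken stretch of genome.
Duox2 probe: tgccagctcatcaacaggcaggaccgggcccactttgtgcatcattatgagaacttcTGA
Duoxa1 junction probe: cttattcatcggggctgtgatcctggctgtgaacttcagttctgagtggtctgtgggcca
Nox1 probe: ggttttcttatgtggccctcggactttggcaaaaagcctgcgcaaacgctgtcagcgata
Noxo1 probe: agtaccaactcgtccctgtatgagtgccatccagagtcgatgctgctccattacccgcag

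The start sites of Duox2 and Duoxa2 face away from each other with 672 bases between them in the RefSeq annotation of GRCm38.p6. The 250 bases before each start are shown for this pair, whose profiles were the most alike among the members, and for Noxo1, the gene that stood furthest above wild type. Capitals mark matches, on either strand, to the letters TATAAA (a core promoter element that positions the polymerase), GGGCGG (a GC box, bound by Sp1), GGGNNNNNCC (a loose NF-kappa B site), TTCNNNGAA (a STAT site) or TGACNNNGC (the core of an antioxidant response element). The Duox2 sequence is chr2:122298228-122298477 (minus strand), the Duoxa2 sequence chr2:122298650-122298899 (plus strand) and the Noxo1 sequence chr17:24695984-24696233 (plus strand).
Duox2 upstream: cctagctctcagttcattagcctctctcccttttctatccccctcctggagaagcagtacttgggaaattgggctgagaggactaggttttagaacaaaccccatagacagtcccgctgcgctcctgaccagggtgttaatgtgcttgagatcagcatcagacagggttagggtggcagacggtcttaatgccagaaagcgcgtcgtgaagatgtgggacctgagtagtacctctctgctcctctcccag
Duoxa2 upstream: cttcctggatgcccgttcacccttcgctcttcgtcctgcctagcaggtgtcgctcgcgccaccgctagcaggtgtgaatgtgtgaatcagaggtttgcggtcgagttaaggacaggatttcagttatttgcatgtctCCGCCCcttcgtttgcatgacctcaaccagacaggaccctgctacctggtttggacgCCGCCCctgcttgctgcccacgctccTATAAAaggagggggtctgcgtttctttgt
Noxo1 upstream: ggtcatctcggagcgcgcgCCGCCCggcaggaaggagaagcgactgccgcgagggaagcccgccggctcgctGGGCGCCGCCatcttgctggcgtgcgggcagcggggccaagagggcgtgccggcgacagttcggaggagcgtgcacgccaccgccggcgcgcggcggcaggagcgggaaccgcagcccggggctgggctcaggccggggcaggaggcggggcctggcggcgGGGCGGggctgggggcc

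The Duox2 window held no match to any of these letters. The Duoxa2 window held TATAAA 30 bases before the start, where 12.4% of 32851 mouse promoters of the same length held it anywhere, and GGGCGG at 113 and 56 bases (32.7% of promoters). The Noxo1 window held GGGCGG at 231 and 17 bases and GGGNNNNNCC at 178 bases (45.8% of promoters), and it was 80.0% G or C with 37 CpG, against a median of 52.4% and 6 CpG over all promoters. None of the 8 member promoters at hand, which leave out Nos2, held the STAT letters (7.0% of promoters) or the antioxidant core (10.2%). These matches describe letters and say nothing of binding.

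Processed signals were divided by the 75th percentile of their own array, which ran from 253.3 to 402.3, and the quotient is called the relative signal. Levels of different probes were not compared, and sums over a marker list serve only to compare arrays. Between 54.8% and 59.2% of the 43020 non-control spots on an array were well above background, no spot was saturated, and the number of arrays limits the precision. On none of the 3 null arrays did the A4gnt probe stand well above background (processed signals of 2.30, 2.94 and 2.11 at 5, 10 and 50 weeks), and it read 165, 325 and 264 on the wild-type arrays. The 3 null arrays shared 1 slide and the 3 wild-type arrays another, so slide and genotype cannot be told apart in any value that follows. The glandular mucosa markers were there: the parietal cell genes Atp4a and Atp4b and the chief cell gene Pgc were well above background on all 6 arrays.

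Noxo1 stood higher and Duox2 lower in the null mucosa at every age, but no member passed the test. In the limma fit over the 3 ages, 0 of 17858 genes, or 0%, had an adjusted p under 0.05, and none of the 8 members tested did. The smallest adjusted p over all genes was 0.0952. At an unadjusted p under 0.05 there were 4227 of the 17858 genes and 4 of the 8 members tested (Noxo1, Gpx2, Duox2 and Noxa1). That count of members was not tested. The median difference, null minus wild type on the log2 scale, was -0.15 over the 8 members and -0.02 over all genes tested. A single age compares 1 mouse with 1 mouse and has no test.

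Duox2, the oxidase of the Duox pair that stood above background here, had relative signals of 0.0594, 0.0532 and 0.146 in null mucosa at 5, 10 and 50 weeks, against 0.230, 0.129 and 0.173 in wild-type mucosa. The null levels at 5 and 10 weeks lay below every wild-type level, and the null level at 50 weeks lay between the wild-type levels at 10 and 50 weeks. The null minus wild type differences were -1.95, -1.28 and -0.25 on the log2 scale. Their mean was -1.16 ± 0.36 (SE, n = 3 age pairs; limma adjusted p = 0.185), or 2.23-fold lower in the null mice. In the ranking of all 17858 genes, 435 genes (2.44%) had a mean difference at least as low. The Duox2 spot was dim, with processed signals of 15.1 to 58.6 in the null arrays and 46.1 to 59.0 in the wild-type arrays, where the lowest signals called above background were 10.1 to 11.6. With normexp background correction and quantile normalization together in place of the scaled processed signal, the mean difference was -0.34, and without the 5-week pair it was -0.76. The 50-week difference was -0.067 with median scaling and -0.057 with normexp and quantile normalization.

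Duoxa2, the maturation factor of DUOX2, had 2 probes, both well above background on all 6 arrays (chr2:122128268-122128327 and chr2:122128562-122128621, plus strand). The brighter probe read 2.25, 1.78 and 5.85 in null mucosa at 5, 10 and 50 weeks, against 8.12, 4.87 and 4.89 in wild-type mucosa. Here too the null levels at 5 and 10 weeks lay below every wild-type level, whereas the null level at 50 weeks lay above the wild-type levels at 10 and 50 weeks. The differences were -1.85, -1.45 and 0.26, with a mean of -1.02 ± 0.46 (SE, n = 3 age pairs; limma adjusted p = 0.268). The dimmer probe gave -1.40, -1.42 and -0.03, so both probes had the largest gaps at the 2 younger ages. Leaving out the 5-week mice gave a mean of -0.60, and leaving out the 50-week mice gave -1.65.

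Duox2 and Duoxa2 followed the same course over the 6 arrays. Likeness was taken as the root mean square difference between log2 profiles, each centred on its own mean, and it was a description over 6 arrays that share genotype, age and slide. Profiles were not scaled, so likeness depends on how far each profile spans as well as on its shape. Among 15966 other genes above background on all arrays, Duoxa2 was the nearest to Duox2 and Duox2 the nearest to Duoxa2, at 0.166. Ttll3, which encodes a tubulin glycylase, came next for both, at 0.174 from Duox2 and 0.222 from Duoxa2, with 0.213, 0.162 and 0.362 in null and 0.607, 0.373 and 0.459 in wild-type mucosa. The third were Acrbp for Duox2 (0.296) and Rsf1 for Duoxa2 (0.318).

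**Figure D1:**
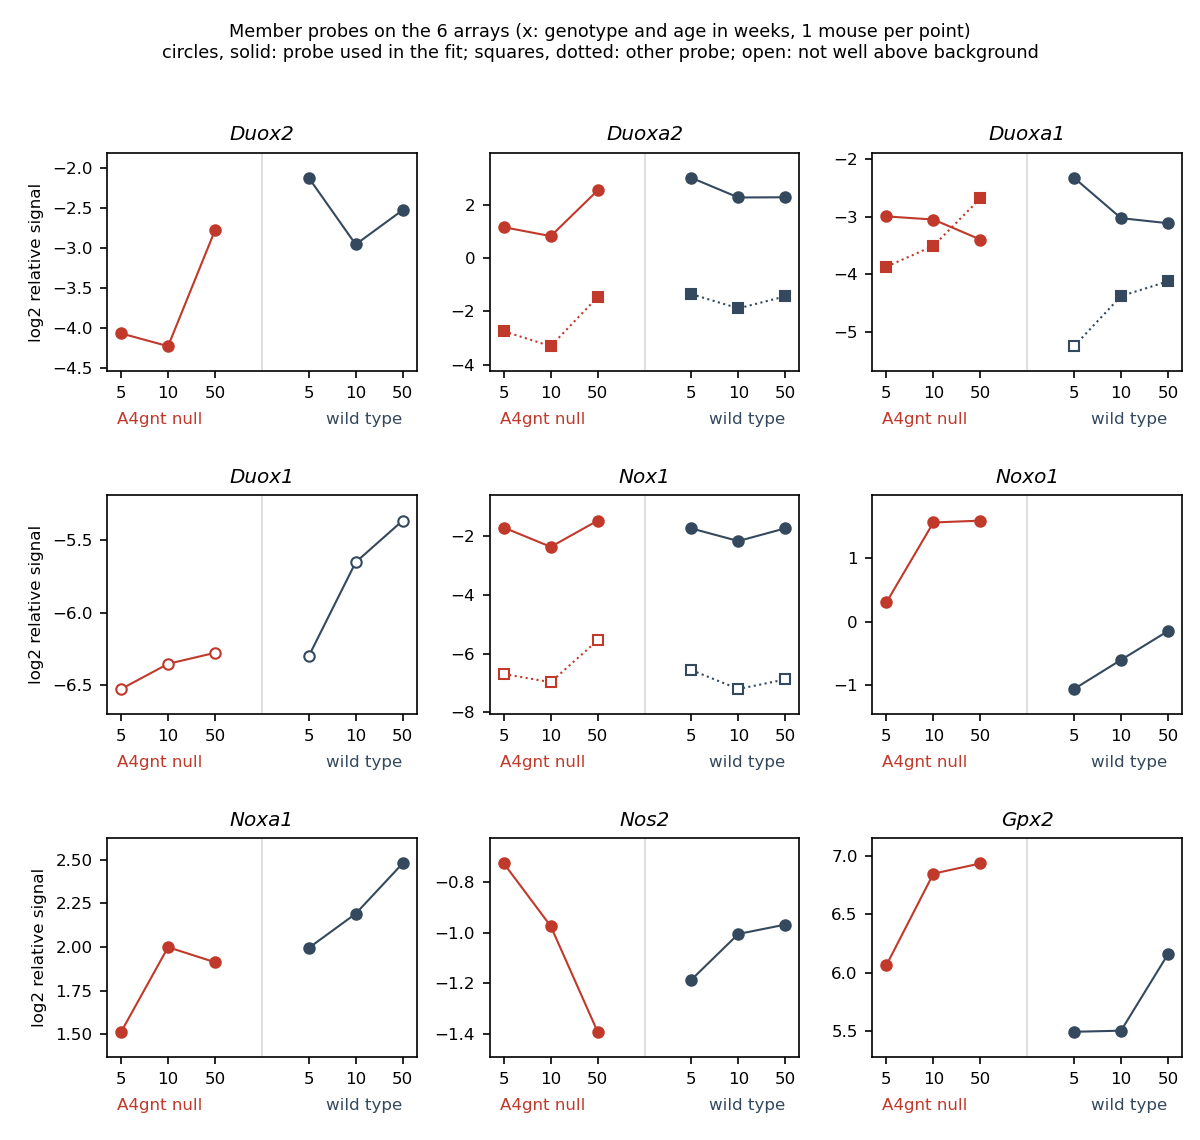
Log2 relative signal (y axis) of every member probe on the 6 arrays, A4gnt null left of wild type, by age in weeks (1 mouse per point); solid lines are the probes used for testing, dotted lines the other probes, and open symbols are not well above background. The Noxo1 levels of the 3 null mice all lie above those of the 3 wild-type mice, while the 5- and 10-week null levels of Duox2 and Duoxa2 lie below all of their wild-type levels.

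Within the null mice, the 50-week array stood above the 10-week array by 1.45 for Duox2 and 1.72 for Duoxa2 on the log2 scale, against 0.43 and 0.01 in wild-type mice. The slope per doubling of age was 0.43 in null and -0.07 in wild-type mice for Duox2, a difference of 0.50 ± 0.22 (SE), and 0.47 in null and -0.18 in wild-type mice for Duoxa2, a difference of 0.65 ± 0.22 (SE). The limma test of that difference called 0 of 17858 genes, or 0%, with a smallest adjusted p of 0.99997. At an unadjusted p under 0.05 there were 506 of the 17858 genes, 1 of them a member, Duoxa2. Each slope rests on 3 mice of 3 ages, and the SE of the difference on their departure from a straight line on log2 age.

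Duoxa1, the maturation factor of DUOX1, gave opposite differences from its 2 probes. The junction probe read 0.125, 0.121 and 0.0949 in null mucosa and 0.199, 0.123 and 0.115 in wild-type mucosa. Its differences were -0.67, -0.02 and -0.28, with a mean of -0.33 ± 0.17 (SE, n = 3 age pairs; limma adjusted p = 0.309). The downstream probe (chr2:122129336-122129395, minus strand) read 0.0685, 0.0879 and 0.155 in null mucosa, against 0.0263, 0.0481 and 0.0574 in wild-type mucosa, where the 5-week value was not well above background. It gave at least 1.53-fold higher in null at 5 weeks and differences of 0.87 and 1.44 at 10 and 50 weeks. The average of both probes, which takes the 5-week wild-type level as read, gave a mean of 0.45 (limma adjusted p = 0.170). The downstream probe starts 714 bases beyond the last Duoxa2 probe and reads the opposite strand. The cause of the disagreement was not tested, so no direction is given for Duoxa1. The profile of its junction probe was nearest to Banp (0.0575), C77847 (0.0604) and Slc10a1 (0.0605). Counted from the profile of Duox2, Duoxa1 stood 4588th, at 0.733.

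**Figure D2:**
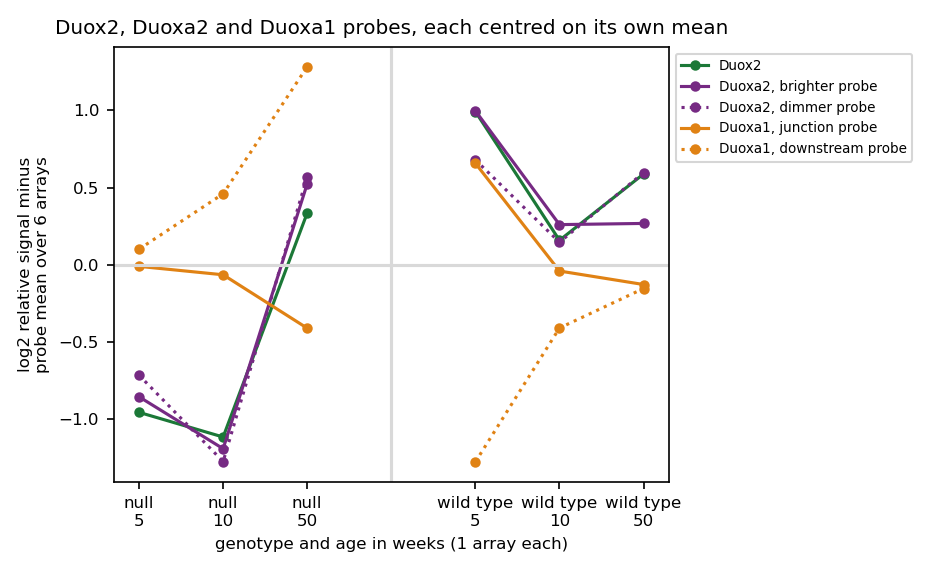
Log2 relative signal of the Duox2, Duoxa2 and Duoxa1 probes, each minus its own mean over the 6 arrays (y axis), by genotype and age in weeks (1 array each, A4gnt null left). The Duox2 probe and both Duoxa2 probes run together, with their 2 lowest points at 5 and 10 weeks in null mice, while the 2 Duoxa1 probes run apart.

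Duox1, the partner oxidase of DUOXA1, was measured on no array at a level well above background. Its probe (chr2:122173491-122173550, plus strand) was spotted 10 times, and the mean processed signals were 2.74, 4.0 and 5.18 in null mucosa and 3.26, 7.11 and 7.04 in wild-type mucosa. A single spot, on the wild-type array of 50 weeks, was well above background. No fold is given and the gene was not tested.

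Noxo1, the organiser that brings the NOX1 complex together at the membrane, had null levels that all lay above its wild-type levels, as 13.2% of genes did. It read 1.24, 2.95 and 3.01 in null mucosa at 5, 10 and 50 weeks, against 0.480, 0.660 and 0.903 in wild-type mucosa. The processed signals behind these were 313, 966 and 1211 in null and 123, 236 and 262 in wild-type arrays, far above the background limit. The null mice were 2.57-, 4.47- and 3.33-fold higher at the 3 ages. The mean log2 difference was 1.75 ± 0.19 (SE, n = 3 age pairs; limma adjusted p = 0.110), or 3.37-fold. Of all genes tested, 136 (0.762%) had a mean difference at least as high, and over the alternatives tried the mean ran from 1.48 to 1.95 with adjusted p from 0.0550 to 0.338. Levels were higher at 50 than at 5 weeks in both genotypes, by 1.28 in null and 0.91 in wild-type mice on the log2 scale.

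Nox1 itself, the catalytic subunit, stood at nearly the same level in both genotypes. It read 0.306, 0.194 and 0.361 in null mucosa, against 0.30, 0.223 and 0.301 in wild-type mucosa, and the groups overlapped. The differences were 0.03, -0.20 and 0.26, with a mean of 0.03 ± 0.14 (SE, n = 3 age pairs; limma adjusted p = 0.906). The other Nox1 probe (chrX:130627582-130627641, minus strand) stood above background on no array. Noxa1, the activator (chr2:24941229-24941288, minus strand), read 2.86, 3.998 and 3.77 in null mucosa, against 3.986, 4.57 and 5.58 in wild-type mucosa. Its null levels were lower at each age, though the null level at 10 weeks reached the wild-type level at 5 weeks, and the mean difference was -0.41 ± 0.13 (SE, n = 3 age pairs; limma adjusted p = 0.190). Counted from the profile of Nox1, Noxo1 was the 15623rd of 15966 genes, at 1.07, and Noxa1 the 11306th, at 0.461. Counted from the profile of Noxo1, Noxa1 was the 10264th, at 1.13. Nox1 spanned 0.89 and Noxa1 0.97 on the log2 scale, against 2.65 for Noxo1, so these ranks do not separate shape from span.

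Gpx2, the glutathione peroxidase of the gut lining (chr12:77893402-77893461, minus strand), read 67.0, 115 and 122 in null mucosa at 5, 10 and 50 weeks, against 45.04, 45.3 and 71.4 in wild-type mucosa. The null level was higher at each age, but the groups overlapped, since the null level at 5 weeks lay under the wild-type level at 50 weeks. The mean log2 difference was 0.90 ± 0.19 (SE, n = 3 age pairs; limma adjusted p = 0.147), or 1.86-fold, and 635 genes (3.56%) had a mean difference at least as high. The largest gap was at 10 weeks, at 1.35.

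The nearest profiles to Noxo1 were F5, which encodes coagulation factor V (0.193), Prr18 (0.236) and Cd44, a hyaluronan receptor of epithelial progenitors and leukocytes (0.237). Cd44 read 2.35, 6.46 and 4.97 in null mucosa and 0.709, 1.60 and 1.74 in wild-type mucosa. The nearest to Gpx2 were Vav3 (0.114), the MHC class II gene H2-Eb1 (0.114) and the serine protease gene Tmprss4 (0.116). Gpx2 was the 138th gene from Noxo1, at 0.471.

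Nos2 (chr11:78773567-78773626, plus strand) showed no one direction. It read 0.604, 0.509 and 0.382 in null mucosa at 5, 10 and 50 weeks, against 0.440, 0.498 and 0.511 in wild-type mucosa. The null level was higher at 5 weeks by 0.46, close at 10 weeks (0.03) and lower at 50 weeks by 0.42 on the log2 scale. The mean difference was 0.02 ± 0.21 (SE, n = 3 age pairs; limma adjusted p = 0.956). The slope per doubling of age was -0.20 in null and 0.06 in wild-type mice, a difference of -0.25 ± 0.10 (SE, limma adjusted p = 0.99997).

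**Figure D3:**
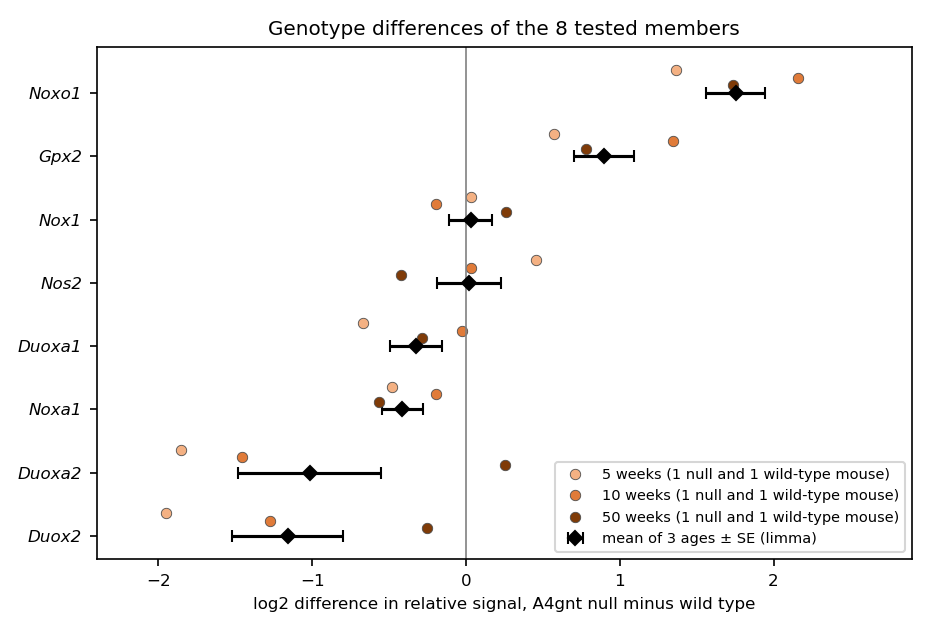
Log2 difference in relative signal, A4gnt null minus wild type (x axis), of the 8 members tested (y axis); small points are single ages (1 null and 1 wild-type mouse), diamonds the limma mean over 3 ages with its SE. Noxo1 and Gpx2 lie right of 0 at all 3 ages and Duox2 and Noxa1 left of it. Duoxa1 is read from its junction probe, which lay at -0.02 at 10 weeks, and its downstream probe was higher in null at all 3 ages.

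Counts of members at a 2-fold difference were set against all genes above background on both arrays of that age. Null levels were at least 2-fold higher for 1 member at 5 weeks (Noxo1; 3.54% of all genes), 2 at 10 weeks (Noxo1 and Gpx2; 4.31%) and 1 at 50 weeks (Noxo1; 2.01%). They were at least 2-fold lower for Duox2 and Duoxa2 at 5 weeks (4.88% of all genes) and at 10 weeks (5.23%), and for 0 members at 50 weeks (4.28%). Of the 8 members above background on all 6 arrays, 2 were higher in null at all 3 ages, against 27.1% of genes, and 3 were lower at all 3 ages, against 26.1%. The 3 include Duoxa1 by its junction probe, at -0.02 at 10 weeks, and its downstream probe went the other way. With 1 probe a gene, every null level lay above every wild-type level for 1 of the 8, Noxo1, against 13.2% of genes, and the downstream Duoxa1 probe, not used in that count, had the same order. The counts over all 3 ages and of levels that do not overlap lie near the background and are no result about the members. The 2-fold counts rest on 1 or 2 members of 8 and were not tested.

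**Figure D4:**
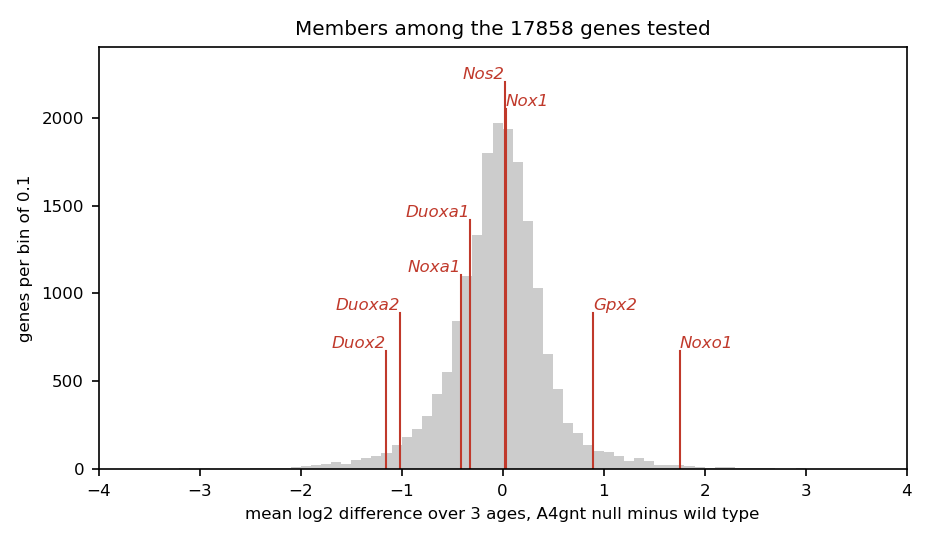
Histogram of the mean log2 difference over 3 ages, A4gnt null minus wild type (x axis), as genes per bin of 0.1 (y axis, 17858 genes), with red lines at the 8 members tested. Nos2 and Nox1 sit at the centre, Noxo1 at 1.75 in the upper tail and Duox2 at -1.16 in the lower.

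The other subunits of NADPH oxidases include the partners that NOX1 shares with phagocytes. Of 9 genes listed, 6 were tested, 0 were called in either direction, 4 were higher in null at all 3 ages and 1 lower, and the median difference was 0.35. Cyba, the membrane subunit that NOX1 shares with the phagocyte oxidase, read 19.9, 13.8 and 17.4 in null mucosa and 16.4, 8.81 and 11.6 in wild-type mucosa, a mean difference of 0.51 ± 0.13 (SE, n = 3 age pairs; limma adjusted p = 0.167). Ncf4, a cytosolic subunit of the phagocyte oxidase, read 0.251, 0.221 and 0.196 in null mucosa and 0.133, 0.123 and 0.0900 in wild-type mucosa, a mean difference of 0.96 ± 0.12 (SE; limma adjusted p = 0.110). Ncf1, another cytosolic subunit, differed by 0.11 and -0.53 at 5 and 50 weeks and was at least 1.60-fold lower in null at 10 weeks, where the null level was not well above background. Cybb, the catalytic subunit of the phagocyte oxidase, Nox3 and Nox4 stood above background on no array.

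Among the peroxidases and other genes that remove superoxide and hydrogen peroxide, 16 of 19 were tested and 0 called, with 6 higher and 3 lower in null at all 3 ages and a median of 0.10. Sod3, the extracellular superoxide dismutase, differed most: it read 0.518, 1.79 and 0.996 in null mucosa and 0.158, 0.292 and 0.236 in wild-type mucosa, a mean difference of 2.14 ± 0.21 (SE, n = 3 age pairs; limma adjusted p = 0.102). The null levels of Sod3 all lay above its wild-type levels, as 13.2% of genes did. Gpx1, the glutathione peroxidase of most cells, differed by 0.46 ± 0.15, the endoplasmic reticulum peroxiredoxin Prdx4 by 0.59, the catalase gene Cat by -0.67 ± 0.16, and Gpx7 by 0.56, a mean that includes 2 wild-type levels not well above background. The heme peroxidases Mpo and Epx stood above background on no array. Of 14 target genes of Nrf2, the regulator that also induces Gpx2, all were tested and 0 called, with 3 higher, 3 lower and a median of 0.10. Hmox1, heme oxygenase, differed by 2.69 at 5 weeks but by -0.25 and 0.27 at 10 and 50 weeks, with 7.09 on the null array and 1.102 on the wild-type array at 5 weeks. Slc7a11, the cystine carrier, was above background on 3 arrays, so its mean difference of 0.57 includes levels not well above background. The glutamate-cysteine ligase gene Gclc differed by -0.48 and the glutathione reductase gene Gsr by 0.35.

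Of the genes that supply or compete with nitric oxide synthase, 13 of 15 were tested and 0 called, with 2 higher, 1 lower and a median of -0.03. Gch1, which makes the cofactor tetrahydrobiopterin, read 19.1, 14.98 and 19.3 in null mucosa and 6.57, 9.56 and 9.58 in wild-type mucosa. Its null levels all lay above its wild-type levels, as 13.2% of genes did. The mean difference of Gch1 was 1.07 ± 0.21 (SE, n = 3 age pairs, limma adjusted p = 0.143). Arg2, the mitochondrial arginase, differed by 0.12 and -1.25 at 5 and 10 weeks and was at least 2.03-fold lower in null at 50 weeks, where the null level was not well above background, and Ddah1, which degrades an inhibitor of nitric oxide synthase, by -0.67. At 5 weeks the wild-type level of Arg1 did not clear background and the null level was at least 1.39-fold higher, and Arg1 differed by -2.44 and -0.29 at 10 and 50 weeks. The endothelial Nos3 differed by 0.15 ± 0.24, and the neuronal Nos1 stood above background on no array.

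Of 14 known inducers of Nos2 or Duox2 and their signal carriers, 5 were tested and 0 called, with 1 higher at all 3 ages, none lower and a median of -0.02. The 1 was Il1b, an inflammatory cytokine, with relative signals of 0.455, 0.397 and 0.587 in null mucosa and 0.0584, 0.191 and 0.0356 in wild-type mucosa. The wild-type level at 50 weeks was not well above background, so the null level there was at least 15.6-fold higher, counted from the lowest signal called above background. The fitted mean difference, which takes that wild-type level as read, was 2.69 ± 0.62 (SE, n = 3 age pairs; limma adjusted p = 0.152). Nod2 differed by -0.12 and 1.73 at 10 and 50 weeks. At 5 weeks, with the wild-type level not clear of background, its null level was at least 1.18-fold higher. Nfkbiz differed by -1.33, -0.47 and 0.20 at the 3 ages, and Irf1 by -0.98, -0.57 and 0.57. Il6 was above background on 2 arrays, the null arrays of 10 and 50 weeks, where it was at least 3.23- and 1.16-fold higher than in wild type. Ifng, Il17a, Il22, Il4 and Il13 stood above background on no array.

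Markers of several gastric cell types stood apart between the genotypes alongside these values, though 0 of them passed the limma test, and in bulk RNA fewer cells of a type and less RNA per cell cannot be told apart. All 6 parietal cell markers were lower in null at all 3 ages (median -1.29), with summed relative signals of 617, 305 and 212 in null and 740, 669 and 479 in wild-type mucosa. All 5 chief cell markers were lower (median -1.11). Among them Cpb1 read 11.8, 0.0274 and 0.0564 in null and 18.0, 0.0653 and 3.75 in wild-type mucosa, so it also differed between mice of 1 genotype. At 10 weeks the null level of Cpb1 was not well above background and at least 1.84-fold lower. All 4 gland mucous cell markers were higher (median 1.35), with sums of 1130, 1746 and 1404 in null and 433, 741 and 986 in wild-type mucosa. All 5 markers of dividing cells were higher (median 1.37), with sums of 20.4, 50.6 and 51.9 in null and 9.29, 10.3 and 37.7 in wild-type mucosa.

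Nox1, Noxo1, Duox2 and Nos2 are known from intestinal epithelium. Of 8 intestinal markers 5 were tested, 3 were higher and 1 lower at all 3 ages (median 0.88), and the sums were 240, 245 and 275 in null and 150, 108 and 203 in wild-type mucosa. Lgals4 made up most of each sum, with 217, 214 and 241 in null and 134, 90.6 and 149 in wild-type mucosa. The epithelial genes Vil1 and Lgals4 were above background on all arrays and differed by 0.98 ± 0.19 and 0.88 ± 0.17 (SE). Car1 and Fabp2 were above background on all arrays too. Car1, the 1 lower, differed by -0.29 ± 0.11 (SE), and Fabp2 by 0.46, 0.52 and -1.39 at the 3 ages. Of the defining genes, Mep1a was above background on no array, Cdx1 on 1, Muc2 on 2 and Cdx2 on 3. Muc2 was at least 1.89-fold higher in null at 10 weeks and at least 4.84-fold lower in null at 50 weeks. Cdx2 read 0.0279, 0.289 and 0.228 in null and 0.00958, 0.00629 and 0.122 in wild-type mucosa, where only the null arrays of 10 and 50 weeks and the wild-type array of 50 weeks were above background, and the null level at 10 weeks was at least 9.67-fold higher. Of 8 neutrophil markers 6 were tested, 3 were higher and 1 lower (median 0.96), with sums of 46.9, 44.9 and 35.0 in null and 67.9, 39.2 and 39.8 in wild-type mucosa, and Cxcr2 and Ngp were above background on no array. Most of these sums was the Csf3r probe, which differed by -0.77, 0.17 and -0.22 at the 3 ages. S100a8 differed by 4.34, 0.48 and 2.06, S100a9 by 3.08, 0.51 and 1.13 and Retnlg by 2.21, 0.84 and 1.19, all higher in null. The 1 lower was Camp, at least 1.43- and 1.08-fold lower in null at 5 and 10 weeks, where the null level was not well above background. Camp differed by -0.34 at 50 weeks. Ly6g was above background on 3 arrays and differed by -0.86 at 10 weeks. Macrophage markers had a median of 0.23 and Cd68 was above background on no array. Markers of the squamous forestomach summed to 3.37, 2.70 and 2.60 in null and 1.77, 7.86 and 14.8 in wild-type mucosa, so this signal differed between mice of 1 genotype as well. The part of these markers in the member values was not tested.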

How the data were processed

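RNA of 6 mice was labelled with Cy3 and hybridised to single-colour Agilent mouse arrays, and the deposited scanner files hold intensity values extracted with Agilent Feature Extraction 10.7.1.1, per the file headers. The processed signal used here was already background-corrected by that software, per the file headers. The deposited table of log2 values equalled the log2 processed signal plus 1 constant per array (-8.54 to -7.88; 100% of probes within 0.001), so its scale and direction are known and its genes were not centred; its column medians ran from -3.89 to -3.56.

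Control and outlier spots were left out, spots of a probe were averaged, and log2 signal minus the log2 75th percentile of each array was tested with limma 3.58.1 in R 4.3.3 (lmFit, eBayes, Benjamini-Hochberg over all genes, threshold 0.05). A gene was its probe with the highest mean signal, and 17858 genes well above background on at least 3 of 6 arrays were tested. The model held genotype and age, so the pairing of arrays comes from the labelled ages. With 1 mouse for each genotype and age, p-values of this model measure the spread between age pairs, with 2 residual and 2.11 prior degrees of freedom. A second model tested genotype by log2 age. Its p-values and SEs rest on how far the mice of each genotype depart from a straight line on log2 age, with 2 residual and 2.42 prior degrees of freedom. The limma fits of both models were run on simulated data. Gene names were updated through RefSeq accessions (26044 probes), symbols (3194) or synonyms (930), and 9231 kept the array's name. Promoters came from RefSeq (GRCm38.p6), where 8 of 9 members, all but Nos2, matched. Probe positions are those of the array files (mm9).

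The members and the gene lists were chosen with earlier results of these data known. Named were all members with every probe, up to 4 tested genes of each pathway list with the largest absolute mean difference, Cybb, Cyba, Gpx1, Cat, Nos1, Nos3 and Arg1, the 3 nearest profiles of each member whose log2 levels spanned at least 1, and the markers; a few listed genes are not reported here by name. Marker lists of enteroendocrine cells (median difference -0.65) and surface mucous cells (-0.13) and of thyroid, of which 1 gene was tested (-0.55), were also measured. Alternatives were quantile and median scaling, normexp background correction (offset 50), the deposited table, other signal filters, the mean of a gene's probes, no age term, a variance trend and leaving out each age pair.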

Additional observations from a re-analysis of the deposited data

How the results depend on the processing

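No member was called for genotype under any of the 12 alternatives tried, leaving out each age pair included. The number of all genes called was 0 with the 75th percentile, 1 (0 higher, 1 lower in null) with quantile normalization, 6 (4 higher, 2 lower) with normexp and quantile normalization, 6 (4 higher, 2 lower) with no age term, that is no replicate block, and 41 (28 higher, 13 lower) with a variance trend; it was 0 to 0 when age pairs were left out. The block changed no member's call. The test of the slopes called 0 genes under each of its 8 alternatives. Of the members' mean differences 93 values kept their direction and side of the threshold and 3 turned: Duoxa1 to 0.45 with the mean of its probes, which disagree, Nos2 to -0.20 without the 5-week pair and Nox1 to -0.084 without the 50-week pair. The signal filters, the variance trend and the fit with no age term leave each mean difference unchanged. Under them only the side of the threshold could change, and the 93 include these values. The mean of a gene's probes likewise cannot change the mean difference of a gene with 1 probe. With 1 age pair left out, Nos2 ran from -0.20 to 0.24 and Nox1 from -0.084 to 0.15. The mean differences ran from -1.61 to -0.34 for Duox2, -1.65 to -0.60 for Duoxa2, 1.48 to 1.95 for Noxo1 and 0.68 to 1.06 for Gpx2. The cause of these shifts was not tested. Of the single-age differences, 49 moved beyond replicate-spot spread and 71 did not. The 71 include genes with 1 probe under the mean of probes, which could not move. Median scaling put the median difference of all genes at 0.10, against -0.02 with the 75th percentile. Dim signal limits Duox2, both Duoxa1 probes and Duox1, and 3 age pairs on 2 slides limit all tests.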
